A study of Mus musculus with 81 samples.

Results

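Kupffer cells are the resident macrophages of the liver, and 9 genes known as part of their identity in the mouse were followed here across all sorted populations of the study: Id3, Id1, Nr1h3, Clec4f, Vsig4, Cd5l, Marco, C6 and Kcna2. The members were the array probes whose only gene symbol was a listed one, and each gene had 1 such probe. They were 9 of the 22180 genes on the array with a probe of 1 symbol, and all 9 were among the 17099 genes that passed the filter on low signal. Gene expression was measured on arrays in 80 samples of 27 groups, 14 groups from wild-type mice and 13 from Irf8 knockout mice. Irf8 encodes an interferon regulatory factor that acts in myeloid development. The wild-type groups were erythro-myeloid progenitors of the yolk sac at E8, A1 and A2 cells of the yolk sac at E9.5, progenitor populations that the labels name so, and cells of E14 embryos and of adults 6 weeks old. At both of the later stages these were microglia of the brain, Kupffer cells of the liver, F4/80high macrophages of the kidney, and CD11bhigh macrophages of the liver and of the kidney. Langerhans cells of the skin were sorted from adults alone. Each of these populations except the E8 progenitors was also sorted from the knockout, which the labels name by the gene alone, with no allele, strain or promoter. Groups held 3 samples, apart from 2 for F4/80high macrophages of the wild-type E14 kidney. In the E14 liver groups the labels repeat a replicate number: all 3 wild-type Kupffer samples and all 3 wild-type CD11bhigh samples are called replicate 1, and 2 knockout CD11bhigh samples replicate 2. Their titles and values differ, so each was counted as a sample, numbered here in accession order. The labels do not say whether samples came from separate animals, so the spread behind the p-values may be technical. That spread was estimated over all 80 samples of the 27 groups, not from the compared groups alone. All levels are log2 signals as the authors normalized them, so a difference of 1 is a 2-fold change of signal.

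Kupffer cells are seeded in the fetal liver from yolk sac progenitors and take up a program of their own there. In the mouse, bone morphogenetic proteins of the liver niche act through SMAD factors on the Id genes, whose helix-loop-helix products bind E proteins and keep them from DNA. Notch ligands of the sinusoid act together with these signals on Nr1h3, which encodes the oxysterol receptor LXR-alpha, and both Id3 and LXR-alpha are known to be needed for mouse Kupffer cells. The other members are effector genes. Clec4f encodes a galactose-binding C-type lectin, Vsig4 the complement receptor CRIg, and Marco a class A scavenger receptor. Cd5l encodes a secreted scavenger-receptor protein that guards against cell death and is a known target of LXR, C6 a component of the terminal complement complex, and Kcna2 a voltage-gated potassium channel.

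The promoters of the genes that fell most in E14 knockout Kupffer cells are shown because IRF8 is known to bind DNA together with the ETS factor PU.1. Each window runs from 250 bases before to 50 after the gene start, 5′ to 3′ on the strand of the gene, from RefSeq in build GRCm38.p6. Capitals mark matches to the ETS core GGAAGT on either strand. The windows were chr6:83656067-83656366 on the minus strand for Clec4f, chrX:96293389-96293688 on the minus strand for Vsig4, chr15:4726960-4727259 on the plus strand for C6, and chr3:107101317-107101616 on the plus strand for Kcna2.
Clec4f: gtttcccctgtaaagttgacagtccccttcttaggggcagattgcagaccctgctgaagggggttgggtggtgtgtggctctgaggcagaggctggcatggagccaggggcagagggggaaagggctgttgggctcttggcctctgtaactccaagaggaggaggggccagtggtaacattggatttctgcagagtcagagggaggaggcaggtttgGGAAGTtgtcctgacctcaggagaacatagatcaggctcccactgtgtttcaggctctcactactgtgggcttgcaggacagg
Vsig4: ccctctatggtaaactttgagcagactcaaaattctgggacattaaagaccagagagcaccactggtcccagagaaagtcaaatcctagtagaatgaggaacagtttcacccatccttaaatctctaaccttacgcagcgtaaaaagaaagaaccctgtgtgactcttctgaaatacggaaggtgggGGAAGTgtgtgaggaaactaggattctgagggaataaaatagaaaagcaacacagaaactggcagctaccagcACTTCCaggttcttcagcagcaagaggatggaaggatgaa
C6: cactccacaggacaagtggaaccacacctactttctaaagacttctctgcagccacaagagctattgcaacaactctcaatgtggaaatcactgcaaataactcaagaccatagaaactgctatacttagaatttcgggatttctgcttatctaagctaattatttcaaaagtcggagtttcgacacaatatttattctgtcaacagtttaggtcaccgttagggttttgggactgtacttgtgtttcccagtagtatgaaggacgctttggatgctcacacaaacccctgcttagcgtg
Kcna2: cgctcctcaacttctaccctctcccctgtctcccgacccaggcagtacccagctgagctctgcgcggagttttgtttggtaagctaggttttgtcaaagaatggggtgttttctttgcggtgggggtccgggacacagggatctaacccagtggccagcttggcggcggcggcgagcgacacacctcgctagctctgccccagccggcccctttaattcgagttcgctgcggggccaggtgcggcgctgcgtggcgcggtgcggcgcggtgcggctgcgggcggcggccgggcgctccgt
Relative to the gene start, Clec4f held 1 match at -33, and Vsig4 held 2, the first at -63. Of 27025 promoter windows of the same length, 24.1% held GGAAGT. A window was found for 8 of the 9 members. None of these 8 genes held a match to the ETS-IRF composite element, GGAA and GAAA parted by any 2 bases, or to the interferon response core, GAAA and GAAA parted by any 2 bases, which 2.79% and 3.49% of all windows held, nor to the longer PU.1 motif GAGGAAGT at 3.28%, which contains GGAAGT. None held the SMAD motif CAGACA at 21.0%, the MAF motif TGCTGAC at 4.58% or the LXR element, AGGTCA and AGGTCA parted by any 4 bases, at 0.0111%. The BMP-type GC box GGCGCC, held by 12% of windows, was matched in Nr1h3 alone. The E box CANNTG, at 72.1% of windows, was matched in Marco, Nr1h3, Cd5l, Kcna2 and C6. All motifs were searched on both strands, and a match is a run of letters, not a shown site of binding.

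The Kupffer label held in the data for most members. In the wild-type Kupffer samples of both stages, Cd5l ran from 9.99 to 10.79 and Marco from 7.76 to 9.59. In the 68 samples of all other populations the highest Cd5l value was 4.79 and the highest Marco value 4.22. Clec4f, Vsig4, C6, Kcna2 and Nr1h3 also had no sample of another population at or above the lowest wild-type Kupffer sample. Id3 and Id1 were not confined to Kupffer cells. For Id3, 9 of 68 other samples lay above the lowest wild-type Kupffer sample, and for Id1 it was 26 of 68. Id3 reached 8.82 ± 0.38 (SD) in adult Langerhans cells of the knockout and 8.14 ± 0.08 in wild-type E14 kidney CD11bhigh macrophages. Id1 was highest in knockout Langerhans cells, at 7.38 ± 0.44, and ranged from 4.99 to 6.52 in wild-type Kupffer cells. Array medians lay between 2.942 and 3.195. The Irf8 probe itself was not lower in the knockout Kupffer cells beyond the test, at 8.42 against 8.64 at E14 and 8.46 against 9.09 in adults. The probe was called lower in the knockout of E14 liver CD11bhigh macrophages (-3.02 ± 0.25, limma log2 difference ± SE) and Langerhans cells (-1.09 ± 0.25). The same held for adult CD11bhigh macrophages of liver (-0.69 ± 0.25) and kidney (-0.76 ± 0.25). It was not called in the other populations, such as adult microglia (0.47 ± 0.25). The place of the probe relative to the deleted part is not known here, so it does not check the labels.

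**Figure D1:**
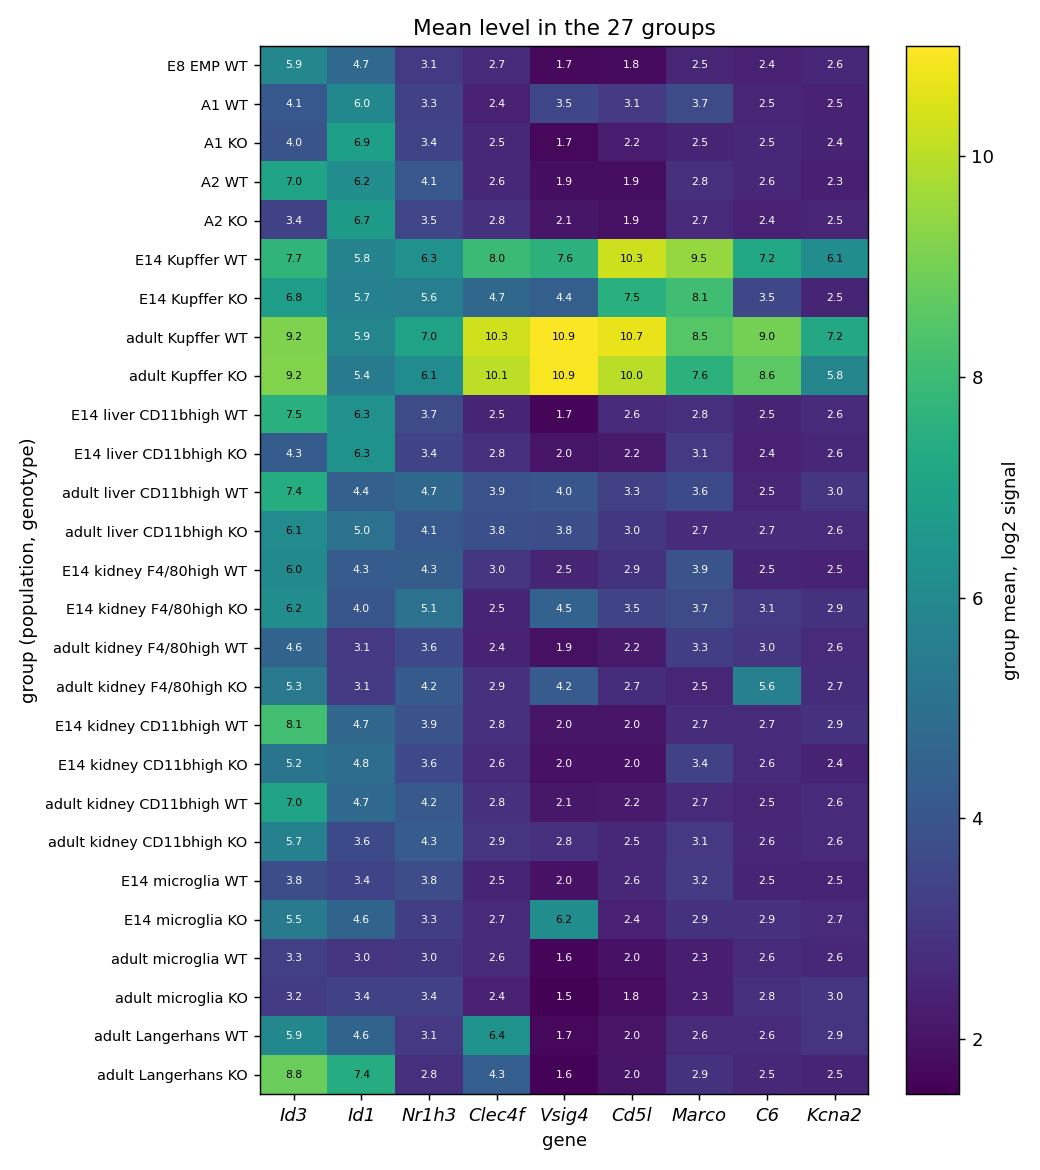
Mean log2 signal of the 9 genes in the 27 groups (rows: population and genotype, WT wild type, KO Irf8 knockout; columns: genes). The 4 Kupffer rows stand out for Cd5l and Marco, while Id3 and Id1 were also high in other rows, such as knockout Langerhans cells.

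Adult wild-type Kupffer cells were highest for most members, and the order below them varied. For Clec4f the adult wild-type Kupffer cells (10.33 ± 0.11) and adult knockout Kupffer cells (10.06 ± 0.32) overlapped, and E14 wild-type Kupffer cells followed at 7.98 ± 0.12. Next came wild-type Langerhans cells at 6.39 ± 0.09, then E14 knockout Kupffer cells at 4.66 ± 0.51, whose samples overlapped those of knockout Langerhans cells at 4.35 ± 0.26. For Vsig4 the adult Kupffer groups stood at 10.94 ± 0.07 without and 10.92 ± 0.15 with the knockout, E14 wild-type Kupffer cells at 7.59 ± 0.14, and E14 knockout microglia at 6.15 ± 0.93. For C6, adult knockout kidney F4/80high macrophages, at 5.64 ± 0.41, lay below E14 wild-type Kupffer cells at 7.21 ± 0.26 and above E14 knockout Kupffer cells at 3.51 ± 0.39, with no overlap on either side. For Cd5l the E14 wild-type (10.26 ± 0.24) and adult knockout (10.01 ± 0.48) Kupffer cells overlapped below the adult wild type at 10.69 ± 0.11. Marco had another order, with E14 wild-type Kupffer cells highest at 9.49 ± 0.10 and adult wild-type cells next at 8.48 ± 0.63. For Kcna2, adult wild-type Kupffer cells led at 7.23 ± 0.50, and E14 wild type (6.14 ± 0.20) overlapped adult knockout (5.83 ± 0.72). E14 knockout Kupffer cells ranked 22 of 27 groups for this gene, at 2.49 ± 0.30. For Nr1h3 the Kupffer groups ran from 6.99 ± 0.48 to 5.57 ± 0.34, each overlapping the next, and the E14 knockout kidney F4/80high macrophages overlapped the last of them at 5.06 ± 0.45. Among the samples that were not Kupffer cells, some stood above their group for several members. Adult liver CD11bhigh wild-type replicate 3 read 5.49 for Vsig4, 4.94 for Clec4f and 4.79 for Cd5l, against 2.68 to 3.92, 2.99 to 3.76 and 2.46 to 2.63 in the other samples of its group. Adult kidney F4/80high knockout replicate 3 read 5.53 for Vsig4, 3.57 for Clec4f and 3.85 for Cd5l, against 3.43 to 3.67, 2.11 to 2.92 and 2.07 to 2.29 in the others of its group.

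At E14 the members were compared between wild-type Kupffer cells and other wild-type macrophages of the same stage. All 9 were higher in Kupffer cells than in microglia, where 10.6% of all tested genes were called higher, with a median difference of 4.73 against -0.01 over all genes. All 9 were also higher than in kidney F4/80high macrophages, where 8.25% of genes were. Cd5l differed most, by 7.69 ± 0.38 (limma log2 difference ± SE) from microglia and 7.36 ± 0.43 from the kidney population. The smallest differences were those of Id1, at 2.34 ± 0.35 and 1.48 ± 0.40. With 1 of the 2 kidney samples left out the second count was 8, as Id1 was lost without replicate 1 and Id3 without replicate 2. Against CD11bhigh macrophages of the same liver 7 were higher (11.2% of all genes were), and Id3 and Id1 were not. Id3 read 7.45, 7.55 and 7.59 in liver CD11bhigh cells and 7.50, 7.77 and 7.82 in Kupffer cells, with overlap (difference 0.16 ± 0.40, adjusted p = 0.85). Id1 read 6.22, 6.23 and 6.46 there and 6.19, 5.44 and 5.64 in Kupffer cells with no overlap (difference -0.54 ± 0.35, adjusted p = 0.302). Markers of other liver cells were also higher in Kupffer cells. Of 10 hepatocyte markers, 8 were higher than in microglia, 8 than in kidney F4/80high and 7 than in liver CD11bhigh macrophages, the mean level being 6.62 in Kupffer cells and 2.84, 2.44 and 4.76 in the others. Both tested erythroid markers were higher in each comparison, the mean level of that list being 6.58 against 2.42, 2.62 and 4.04. Their part in the member differences was not tested. In the wild-type liver CD11bhigh samples the mean level of neutrophil markers was above that of macrophage markers (values below). The part of this makeup was not tested either.

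The onset of the program was read as E14 Kupffer cells against the E9.5 A2 population. In the wild type 7 members were higher at E14, where 11.5% of all genes were called higher: Cd5l, Marco, Vsig4, Clec4f, C6, Kcna2 and Nr1h3. Id3 and Id1, the members on the BMP side, did not pass the test. Cd5l, the secreted survival protein, read 1.73, 1.89 and 1.92 in A2 and 9.99, 10.46 and 10.32 in Kupffer cells, a log2 difference of 8.41 ± 0.38 (adjusted p = 1.78e-27). Marco, the scavenger receptor, read 2.62, 2.82 and 2.94 in A2 and 9.47, 9.41 and 9.59 in Kupffer cells, a difference of 6.70 ± 0.30. For both genes the A2 samples lay below the middle signal of the whole table, 3.041. The files used here give no detection calls, so a fold against such a group is a ratio of signals and no bound. Vsig4 differed by 5.74 ± 0.43, Clec4f by 5.42 ± 0.29, C6 by 4.65 ± 0.23, Kcna2 by 3.82 ± 0.33 and Nr1h3 by 2.21 ± 0.31. Nr1h3 alone of these was already above the middle signal in A2, at 4.38, 3.71 and 4.16, and reached 6.22, 6.75 and 5.90 at E14.

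Id3 was high before E14. It read 7.17, 7.10 and 6.84 in wild-type A2 and 7.50, 7.77 and 7.82 in wild-type E14 Kupffer cells, so the samples did not overlap, yet the difference of 0.66 ± 0.40 did not pass the test (adjusted p = 0.25), though it did in a fit of the compared groups alone (adjusted p = 0.00253). Id1 read 6.22, 5.93 and 6.34 in A2 and 6.19, 5.44 and 5.64 in Kupffer cells, with overlap (difference -0.41 ± 0.35, adjusted p = 0.468). In the A1 population of the same stage, wild-type Id3 read 4.86, 3.79 and 3.71, and Id1 was at 5.96, 6.00 and 5.88. Of 22 other Kupffer cell genes 18 were tested and 17 were higher at E14 than in A2, with a median of 3.77. Among them were Spic, a transcription factor of iron-handling macrophages (7.22 ± 0.36), and Clec4n, the lectin Dectin-2 (4.79 ± 0.25). Of the 14 tested LXR partners and targets all 14 were higher, with a median of 2.60, such as the cholesterol exporter Abcg1 (4.09 ± 0.25) and the phospholipid transfer protein Pltp (4.55 ± 0.27). In the BMP and ID list 5 of 17 were higher and 3 lower, where 2400 of the 17099 tested genes were called lower. The largest rises of this list were those of the inhibitory SMAD gene Smad6 (2.27 ± 0.27) and of Id2 (2.22 ± 0.32). In the Notch list 2 of 8 were higher, the target genes Hes1 (2.93 ± 0.31) and Hey1 (3.40 ± 0.37), and 1 was lower, the DNA-binding partner Rbpj (-1.75 ± 0.19). Markers of other liver cells moved with the same comparison: 8 of 10 hepatocyte genes were higher, their mean level running from 2.64 to 3.46 in A2 and from 6.39 to 6.91 in E14 Kupffer cells. Liver cells make C6 too, and the part of hepatocyte RNA in these rises was not tested.

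In the knockout the same step gave 7 members higher and 1 lower, where 10.8% of all genes were called higher and 7.04% lower. Cd5l rose by 5.58 ± 0.38, Marco by 5.40 ± 0.30, Id3 by 3.44 ± 0.40, Vsig4 by 2.27 ± 0.43, Nr1h3 by 2.09 ± 0.31, Clec4f by 1.82 ± 0.29 and C6 by 1.12 ± 0.23. Id1 fell by 1.00 ± 0.35 (adjusted p = 0.0373), a call lost when any of 5 of the 6 samples was left out. Kcna2 read 2.79, 2.27 and 2.50 in A2 and 2.83, 2.34 and 2.30 in E14 Kupffer cells of the knockout, a difference of -0.03 ± 0.33 (adjusted p = 0.97). In the same step 9 of 10 hepatocyte markers were higher (mean level 2.73 to 3.56 in A2 and 4.63 to 6.01 at E14), as were 4 of 5 macrophage markers (6.34 to 6.80 and 7.95 to 8.27), and their part was not tested.

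The knockout difference was then compared between E14 Kupffer cells and A2, a comparison added after the Id3 levels had been seen. It was past the test for 6 members, 5 more negative and 1 less negative at E14, where 2.35% of all genes were called in the first direction and 3.81% in the second. Id3 went the other way from the rest. In knockout A2 it read 3.36, 3.03 and 3.75, far below the wild type (difference -3.66 ± 0.40, adjusted p = 7.24e-11), while in knockout E14 Kupffer cells it read 7.31, 6.86 and 6.29. The knockout difference was therefore 2.79 ± 0.56 less negative at E14 (adjusted p = 0.000403). Kcna2 (-3.85 ± 0.47), Clec4f (-3.60 ± 0.41), C6 (-3.53 ± 0.32), Vsig4 (-3.47 ± 0.60) and Cd5l (-2.83 ± 0.54) had a more negative knockout difference at E14, having no level in A2 of either genotype above 2.95. In A2, Id3 was the 1 member called (6.28% of all genes were called lower), and it fell with its relative Id2 (-3.08 ± 0.32). All 5 macrophage markers were also lower in knockout A2, with a mean level of 8.22 to 8.50 in wild type and 6.34 to 6.80 in the knockout, and 2 of 4 progenitor markers were higher. The part of this shift in the Id3 difference was not tested.

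**Figure D2:**
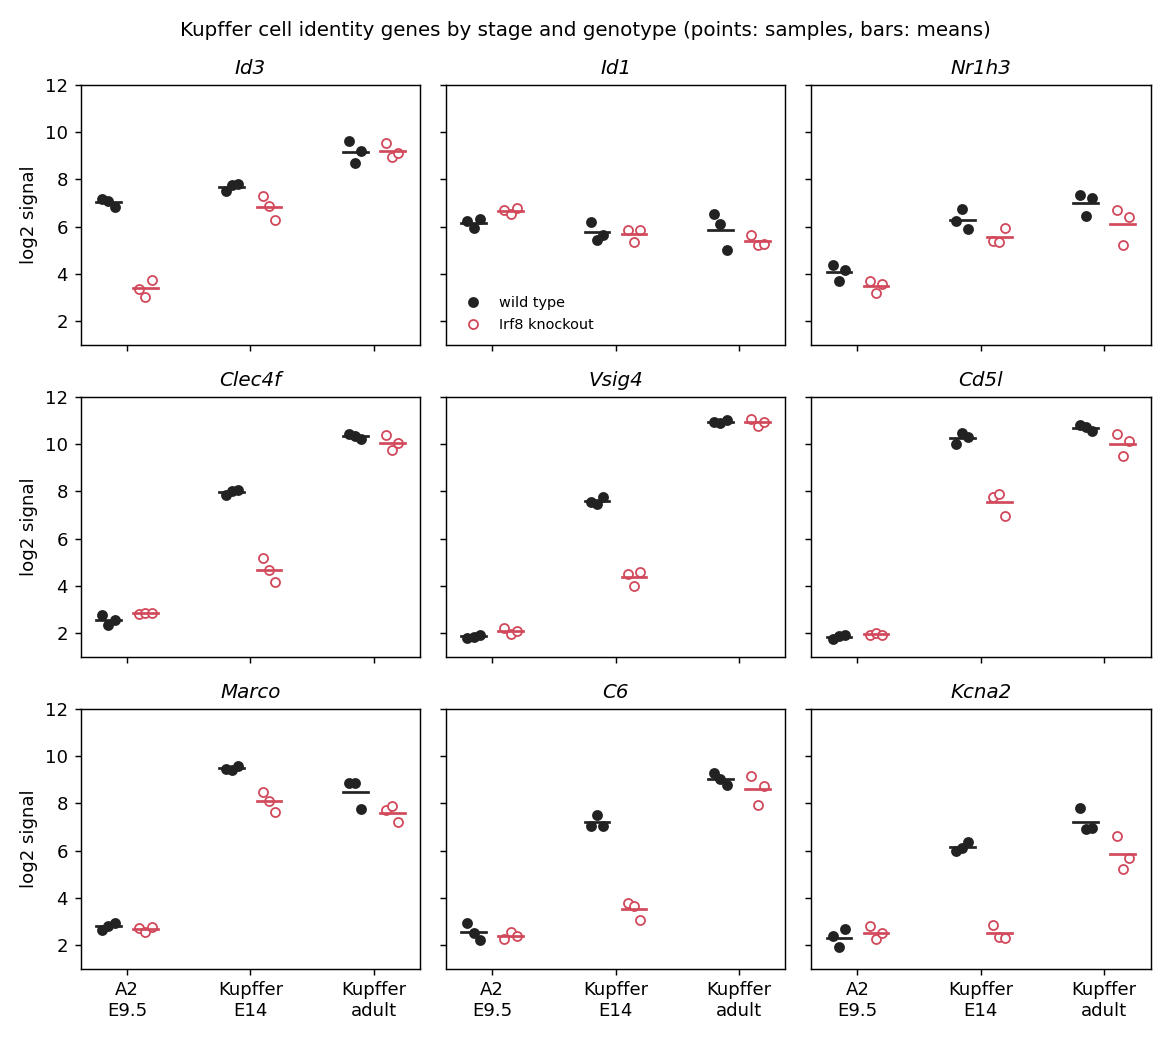
Log2 signal of each gene in A2 at E9.5 and in Kupffer cells at E14 and in adults (x axis: population and stage; filled points: wild-type samples; open points: Irf8 knockout samples; bars: group means). Clec4f, Vsig4, Cd5l, Marco, C6 and Kcna2 separate by genotype at E14, and Id3 separates most in A2.

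In E14 Kupffer cells the knockout was lower for 6 members and higher for 0, where 9.81% of all tested genes were called lower. Of the 17099 tested genes 2256 were called higher, the background for the list counts below. The 6 lower members were C6, Kcna2, Clec4f, Vsig4, Cd5l and Marco, all of them effector genes. The median difference of the 9 was -2.73, against 0.03 over all genes. The count was 6 with any of the 6 samples left out.

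C6, the complement component, read 7.06, 7.51 and 7.06 in the wild type and 3.79, 3.66 and 3.06 in the knockout. The difference was -3.70 ± 0.23 (adjusted p = 2.26e-20), with a wide gap between the genotypes. Kcna2, the potassium channel, read 5.97, 6.09 and 6.36 against 2.83, 2.34 and 2.30, a 12.5-fold lower signal (-3.65 ± 0.33, adjusted p = 2.36e-13). Every knockout sample of Kcna2 lay below the middle signal of the table, as in A2. The lectin Clec4f read 7.84, 8.02 and 8.07 in the wild type and 5.16, 4.67 and 4.15 in the knockout, 9.96-fold lower (-3.32 ± 0.29, adjusted p = 4.22e-14). The complement receptor Vsig4 read 7.54, 7.48 and 7.76 against 4.48, 4.01 and 4.59, 9.39-fold lower (-3.23 ± 0.43, adjusted p = 1.92e-08). These are the 4 genes whose promoters are shown, and their wild-type levels differed. Cd5l read 9.99, 10.46 and 10.32 in the wild type and 7.75, 7.88 and 6.96 in the knockout, 6.64-fold lower (-2.73 ± 0.38, adjusted p = 7.17e-08). Marco read 9.47, 9.41 and 9.59 against 8.50, 8.10 and 7.65, 2.64-fold lower (-1.40 ± 0.30, adjusted p = 0.000254). Cd5l and Marco in the knockout still lay above every sample of the other populations.

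The regulators among the members did not pass the test at E14. Id3 read 7.50, 7.77 and 7.82 in the wild type and 7.31, 6.86 and 6.29 in the knockout, with no overlap (-0.87 ± 0.40, adjusted p = 0.11). This SE rests on a spread estimated over all groups. Nr1h3 read 6.22, 6.75 and 5.90 against 5.41, 5.35 and 5.96, with overlap (-0.72 ± 0.31, adjusted p = 0.09). For Id1 the values were 6.19, 5.44 and 5.64 against 5.85, 5.33 and 5.85, a difference of -0.08 ± 0.35 (adjusted p = 0.913). Both Id3 and Nr1h3 passed with array weights (adjusted p = 0.0152 and 0.0238) and in a fit of the compared groups alone (adjusted p = 0.00834 and 0.0363), and Nr1h3 also after quantile normalization (adjusted p = 0.0441).

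The wider lists of the same cells moved with the effector genes. Of the 18 tested other Kupffer cell genes 16 were lower in the E14 knockout and 0 higher, with a median of -1.69. They included Il18bp, an inhibitor of interleukin-18 (-3.72 ± 0.28), Tmem26 (-3.63 ± 0.29), the complement regulator Cfp (-1.77 ± 0.22) and the podoplanin-binding lectin Clec1b (-2.54 ± 0.32). Hmox1 and Xlr3a did not pass the test. Although the LXR gene Nr1h3 was not called, 13 of 14 LXR partners and targets were lower, with a median of -1.30. Examples were Pltp (-2.90 ± 0.27), the engulfment receptor Mertk (-2.75 ± 0.33), and the cholesterol exporters Abca1 (-2.11 ± 0.29) and Abcg1 (-1.72 ± 0.25). Mertk is also on the macrophage marker list, and it is counted in both lists throughout. In the BMP and ID list 4 of 17 were lower and 1 was higher. The lower ones were the receptor genes Acvrl1 (-1.75 ± 0.22) and Bmpr2, Smad6 (-2.04 ± 0.27) and the receptor-activated Smad1 (-0.88 ± 0.21), and the higher was the E-protein gene Tcf12 (0.88 ± 0.17). In the Notch list 3 of 8 were higher, Rbpj (1.30 ± 0.19), Notch1 (0.83 ± 0.20) and Nrarp (0.85 ± 0.32), and Hey1 was lower (-1.63 ± 0.37).

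The makeup of the E14 Kupffer samples differed between genotypes in other markers as well. All 5 macrophage markers were lower in the knockout, with a mean level of 9.73 to 9.97 in wild type and 7.95 to 8.27 in the knockout. Of 4 progenitor markers 3 were higher, with means of 5.27 to 6.12 against 6.93 to 7.35. Of 5 monocyte markers 2 were higher (5.56 to 5.77 against 5.38 to 6.60), and 0 of 8 neutrophil markers changed (6.03 to 6.48 against 5.88 to 7.14). Of 10 hepatocyte markers 4 were lower (6.39 to 6.91 against 4.63 to 6.01). Of 14 endothelial markers 3 were higher and 2 lower, and their mean level was 3.96 against 3.73. Single markers of that list went different ways. The cadherin gene Cdh5 had a group mean of 10.17 in the wild type and 5.41 in the knockout, and Egfl7 had 3.08 and 5.64. Both were chosen after their values were seen. Others of the list were low in both genotypes, such as Kdr (3.22 and 3.37), Clec14a (2.23 and 2.10) and Ptprb (2.83 and 2.83). Cdh5 was also high in adult Kupffer cells, at 10.57 in the wild type and 9.76 in the knockout. Whether its level reads endothelial content was not tested. No marker of these lists is given as 0 in log2 signals. In sorted bulk samples, fewer Kupffer cells among the sorted cells and less RNA per cell cannot be told apart. The median difference of the macrophage markers was -1.70, and their part in the member differences was not tested.

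In adult Kupffer cells the knockout was lower for 2 members of 9, where 7.39% of all genes were called lower. Of the 17099 tested genes 768 were called higher. Kcna2 read 7.80, 6.90 and 6.97 in the wild type and 6.62, 5.20 and 5.68 in the knockout, without overlap (-1.39 ± 0.33, adjusted p = 0.00244). Marco read 8.84, 8.85 and 7.76 against 7.72, 7.87 and 7.23, with overlap (-0.87 ± 0.30, adjusted p = 0.0448). Both calls were lost without knockout replicate 2, and in a fit of the compared groups alone (adjusted p = 0.168 and 0.291). That of Marco was also lost without wild-type replicate 1 or 2 or knockout replicate 3, and after quantile normalization (adjusted p = 0.115). Without knockout replicate 1, C6 and Nr1h3 were called as well (adjusted p = 0.04 and 0.0109), the highest count of 4.

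Of the genes that fell most at E14, Vsig4, Clec4f and C6 differed by 0.41 or less in adults. Vsig4 read 10.94, 10.88 and 11.01 in the wild type and 11.07, 10.76 and 10.92 in the knockout, with overlap (-0.02 ± 0.43, adjusted p = 0.986). Clec4f read 10.42, 10.35 and 10.21 against 10.39, 9.75 and 10.05 (-0.27 ± 0.29, adjusted p = 0.635). C6 read 9.27, 9.01 and 8.79 against 9.17, 7.94 and 8.74 (-0.41 ± 0.23, adjusted p = 0.265). Knockout replicate 2 was the lowest of its group for each of Vsig4, Clec4f, C6, Kcna2, Cd5l, Nr1h3, Id3 and Id1. Cd5l read 10.79, 10.71 and 10.57 against 10.42, 9.48 and 10.15, without overlap but not past the test (-0.68 ± 0.38, adjusted p = 0.276). Nr1h3 read 7.32, 6.44 and 7.22 against 6.69, 5.24 and 6.40, a difference of -0.88 ± 0.31 not past the test (adjusted p = 0.0518). It was called with median centring (adjusted p = 0.0413), a floor at the 75th percentile (0.0414) and the replicate number as a block (0.0452), and without wild-type replicate 2 (0.0194) or knockout replicate 3 (0.0435). Id3 read 9.62, 8.70 and 9.19 against 9.52, 8.94 and 9.12 (0.02 ± 0.40, adjusted p = 0.987). Id1 read 6.52, 6.10 and 4.99 against 5.66, 5.24 and 5.26 (-0.49 ± 0.35, adjusted p = 0.427). The sign of the adult Vsig4 difference changed with quantile normalization, to 0.03, and that of Id3 with median centring, to -0.01.

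In the adult knockout 4 of 18 other Kupffer cell genes were lower and 0 higher: Tmem26 (-2.03 ± 0.29), the haemoglobin scavenger receptor Cd163 (-2.40 ± 0.44), Spic (-1.37 ± 0.36) and Clec1b (-1.21 ± 0.32). Of 14 LXR partners and targets 1 was lower, Abcg1 (-0.89 ± 0.25). In the BMP and ID list 3 of 17 were higher, Eng (2.00 ± 0.29), Tcf3 (0.95 ± 0.21) and Id4 (1.21 ± 0.32), and Acvrl1 (-1.21 ± 0.22) and Smad1 were lower. In the Notch list 3 of 8 were higher, Dtx1 (0.92 ± 0.26), Hey1 (1.27 ± 0.37) and Notch1 (0.62 ± 0.20), and Notch2 was lower (-0.80 ± 0.19). Eng, a BMP co-receptor, is also a gene of endothelial cells. Endothelial markers moved with genotype here: 13 of 14 were higher in the adult knockout, their mean level being 5.47, 5.49 and 6.94 in wild-type samples and 7.73, 8.23 and 7.74 in the knockout. Of 5 macrophage markers 1 was lower (9.98 to 10.24 against 9.19 to 9.97), and 0 of 10 hepatocyte markers changed, at 8.39 to 9.18 against 8.46 to 8.98. Of 4 progenitor markers 1 was higher, and 0 of 8 neutrophil and 0 of 5 monocyte markers were called. The part of the endothelial shift in the member differences was not tested.

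The change of the knockout difference with age was tested as an interaction. It was past the test for 5 members, all in the direction of a smaller loss in adults, where 5.88% of all genes were called in that direction. The knockout difference was less negative in adults than at E14 by 3.29 ± 0.32 for C6 (adjusted p = 2.17e-11), 3.21 ± 0.60 for Vsig4 (adjusted p = 8.31e-05), 3.05 ± 0.41 for Clec4f (adjusted p = 1.62e-07), 2.25 ± 0.47 for Kcna2 (adjusted p = 0.000398) and 2.06 ± 0.54 for Cd5l (adjusted p = 0.00447). The count was 5 with any 1 of the 12 samples left out. Marco, lower at both stages, had a difference between stages of 0.53 ± 0.43 (adjusted p = 0.45). For Id3 it was 0.89 ± 0.56 (adjusted p = 0.307), for Id1 -0.40 ± 0.50 (adjusted p = 0.658) and for Nr1h3 -0.16 ± 0.44 (adjusted p = 0.862). The interaction was also positive for 11 of 18 other Kupffer cell genes, for 10 of 14 LXR partners and targets and for 3 of 5 macrophage markers. It was positive for 10 of 14 endothelial markers. Some hepatocyte markers were lower in the E14 knockout Kupffer cells, while no marker of that list was called in the adult knockout (values above). The part of these marker lists in the interaction was not tested.

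**Figure D3:**
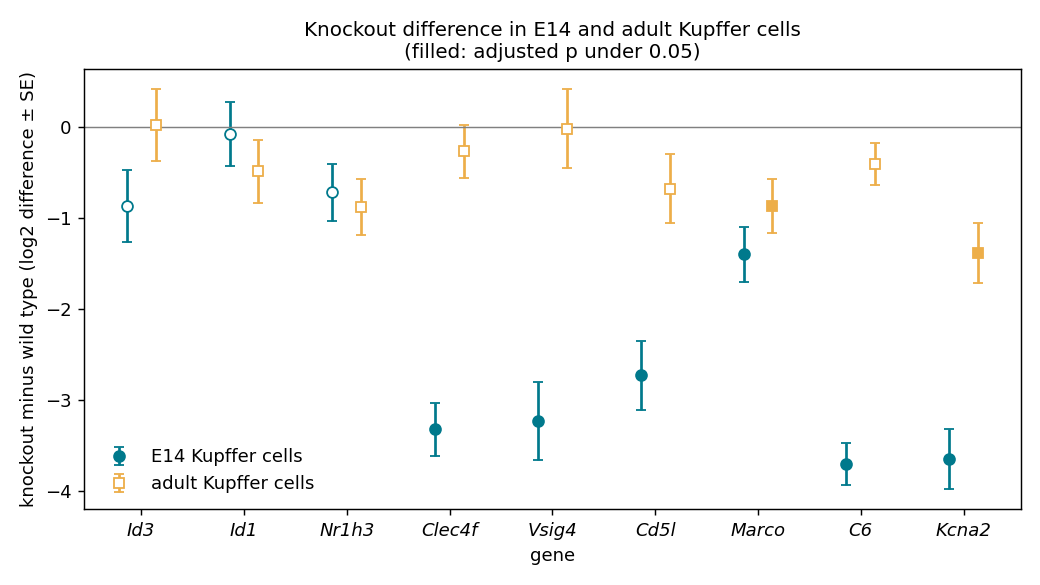
Knockout minus wild type (limma log2 difference, bars ± SE) for each gene in Kupffer cells at E14 (circles) and in adults (squares), filled where the adjusted p was under 0.05. C6, Kcna2, Clec4f, Vsig4 and Cd5l lie between -3.70 and -2.73 at E14 and between -1.39 and -0.02 in adults.

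Maturation from E14 to adult was followed in each genotype. In wild-type Kupffer cells 5 members rose and 1 fell, where 11.8% of all genes were called higher and 18.3% lower. Vsig4 rose by 3.35 ± 0.43, Clec4f by 2.35 ± 0.29, C6 by 1.82 ± 0.23, Id3 by 1.48 ± 0.40 and Kcna2 by 1.09 ± 0.33. Marco fell by 1.01 ± 0.30, from 9.47, 9.41 and 9.59 to 8.84, 8.85 and 7.76, with no overlap, but the call was lost without adult replicate 3, as that of Kcna2 was without adult replicate 1. Cd5l differed by 0.43 ± 0.38 (adjusted p = 0.442, and 0.0283 in a fit of the compared groups alone). Nr1h3 (0.70 ± 0.31, adjusted p = 0.0805, and 0.02 after quantile normalization) and Id1 (0.12 ± 0.35, adjusted p = 0.857) did not pass either. In the knockout 6 members rose, where 18.6% of all genes were called higher. Vsig4 rose by 6.56 ± 0.43, Clec4f by 5.40 ± 0.29, C6 by 5.11 ± 0.23, Kcna2 by 3.34 ± 0.33, Cd5l by 2.49 ± 0.38 and Id3 by 2.37 ± 0.40. Marco differed by -0.48 ± 0.30 (adjusted p = 0.196). Of the other Kupffer cell genes 6 of 18 rose and 2 fell in the wild type, and 14 of 18 rose in the knockout. In the wild type Cd163 had the smallest adjusted p of that list, with a rise of 4.69 ± 0.44. Endothelial markers (11 of 14) and hepatocyte markers (7 of 10) were also higher in adult than in E14 wild-type Kupffer cells, and their part in the rises was not tested. In the knockout all 14 endothelial markers were higher in adults (mean level 3.53 to 3.90 at E14 and 7.73 to 8.23 in adults), as were 9 of 10 hepatocyte markers (4.63 to 6.01 and 8.46 to 8.98) and 4 of 5 macrophage markers (7.95 to 8.27 and 9.19 to 9.97). Their part in the knockout rises was not tested.

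Outside Kupffer cells Id3 was the member most often called between genotypes. Over the samples of all other populations the median level was 5.68 for Id3, 4.57 for Id1 and 3.63 for Nr1h3. It was 2.14 for Cd5l, 2.63 for Kcna2, 2.59 for C6, 2.02 for Vsig4, 2.73 for Clec4f and 2.79 for Marco. These last medians lay below the middle signal of the whole table, where a fall could hardly be seen. The lack of a call therefore does not show that those genes were unaffected. In E14 liver CD11bhigh macrophages Id3 was the 1 member called (8.29% of all genes were called lower), at 7.45, 7.55 and 7.59 in wild-type samples and 4.45, 3.97 and 4.40 in the knockout (-3.26 ± 0.40, adjusted p = 3.49e-09). In E14 kidney CD11bhigh macrophages it was again the 1 member called (8.05% lower). Wild-type values were 8.23, 8.07 and 8.12 against 4.18, 4.28 and 7.14, so knockout replicate 3 lay near the wild type. The difference of -2.94 ± 0.40 became -3.91 without that sample. Both adult CD11bhigh populations were also called for Id3, and the difference between stages was not tested. Adult liver CD11bhigh macrophages had Id3 at 7.29, 7.08 and 7.80 against 5.62, 6.04 and 6.62 (-1.29 ± 0.40, adjusted p = 0.0151) and Marco with a difference of -0.95 ± 0.30, 2 members where 7.56% of genes were called lower. Adult kidney CD11bhigh macrophages had Id3 at 6.82, 7.40 and 6.91 against 6.11, 6.03 and 4.89 (-1.37 ± 0.40, adjusted p = 0.0132) and Id1 with a difference of -1.12 ± 0.35, 2 members where 6.70% were. Neither adult pair of calls held in every fit: without liver wild-type replicate 3, or without kidney knockout replicate 3, 0 members were called. The Id3 call was also lost without liver knockout replicate 1 and without kidney wild-type replicate 2. The liver Marco call was also lost without wild-type replicate 1 or knockout replicate 2 or 3, and in a fit of the compared groups alone (adjusted p = 0.0952). The kidney Id1 call was also lost without wild-type replicate 3, where the difference was -0.64, or knockout replicate 2. The neutrophil markers called higher in these knockout populations were 1, 4, 5 and 7 of 8 in the order given. Of the 17099 tested genes 979, 1012, 1572 and 1187 were called higher. The macrophage markers called lower were 3, 5, 4 and 1 of 5. In the same order the mean neutrophil marker level of the wild type was 10.03 to 10.27, 5.67 to 8.56, 6.02 to 8.04 and 3.55 to 5.29, and that of the knockout 10.68 to 10.77, 9.17 to 10.52, 10.72 to 10.97 and 9.07 to 9.81. The macrophage marker level of the wild type was 7.03 to 7.30, 8.92 to 9.02, 8.34 to 8.58 and 7.92 to 8.37, and that of the knockout 5.36 to 5.81, 7.00 to 8.17, 6.68 to 7.14 and 7.37 to 7.76. The part of these shifts in the Id3 differences was not tested.

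In other populations the Id genes rose. In Langerhans cells, Id3 read 5.72, 5.96 and 6.13 in the wild type and 8.69, 8.53 and 9.25 in the knockout (2.89 ± 0.40, adjusted p = 2.61e-08). Id1 read 4.70, 4.95 and 4.08 against 7.04, 7.23 and 7.89 (2.81 ± 0.35, adjusted p = 2.13e-09). The lectin Clec4f fell there, from 6.44, 6.45 and 6.28 to 4.63, 4.11 and 4.31 (-2.04 ± 0.29, adjusted p = 5.34e-08). The samples of the genotypes did not overlap for these 3 genes, and 16.6% of all genes were called higher and 10.4% lower in this comparison. All 7 keratinocyte markers, a list added after the data were seen, were higher in the knockout, with mean levels of 7.03 to 7.34 in wild type and 9.12 to 9.49 in the knockout. Only the wild-type titles name GFP+ cells. The part of either in these differences was not tested.

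Vsig4, the complement receptor, rose in knockout macrophages of brain and kidney. In E14 microglia it read 2.14, 1.89 and 1.87 in the wild type and 7.05, 5.19 and 6.21 in the knockout (4.18 ± 0.43, adjusted p = 1.23e-11). Id3 (1.67 ± 0.40, adjusted p = 0.00167) and Id1 (1.16 ± 0.35, adjusted p = 0.0169) rose with it, 3 members where 8.30% of all genes were called higher, and the Id1 call was lost without wild-type or knockout replicate 2. Monocyte markers (5 of 5, 4.15 to 5.71 in wild type and 7.06 to 7.62 in the knockout) and neutrophil markers (5 of 8, 3.44 to 7.57 against 8.82 to 9.30) were higher in the same knockout samples, and their part was not tested. In adult microglia 0 members were called, where 14.6% of all genes were. In E14 kidney F4/80high macrophages Vsig4 was the 1 member called (0.591% of genes were called higher), at 2.78 and 2.17 in the wild type and 4.69, 4.49 and 4.24 in the knockout. The difference of 2.00 ± 0.48 (adjusted p = 0.00936) was no longer called without wild-type replicate 2 or without knockout replicate 1. In adult kidney F4/80high macrophages Vsig4 read 2.19, 1.98 and 1.57 against 3.67, 3.43 and 5.53 (2.30 ± 0.43, adjusted p = 0.000153), and without knockout replicate 3 the difference was 1.64 (adjusted p = 0.026).

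C6 followed Vsig4 in the adult kidney. It read 2.95, 3.27 and 2.75 in wild-type F4/80high macrophages and 5.95, 5.78 and 5.18 in the knockout, a 6.25-fold higher signal without overlap (2.64 ± 0.23, adjusted p = 4.85e-14). The 2 genes were the members called there, where 1.37% of all genes were called higher. The C6 difference in this kidney population was larger in adults than at E14 by 2.03 ± 0.34 (adjusted p = 0.000103), the 1 member past that test where 0.579% of genes were called in that direction. Monocyte markers were higher in the adult knockout for 2 of 5 (4.81 to 5.44 against 5.98 to 6.07), and their part was not tested. Between adult Kupffer cells and adult kidney F4/80high macrophages the knockout difference itself differed for 3 members, all lower in Kupffer cells, where 2.37% of genes were. Kupffer minus kidney, it was -3.05 ± 0.32 for C6 (adjusted p = 2.5e-10), -2.32 ± 0.60 for Vsig4 (adjusted p = 0.0135) and -1.48 ± 0.44 for Nr1h3 (adjusted p = 0.0365). The Nr1h3 call was lost when any of 6 of the 12 samples was left out, and the Vsig4 call without kidney knockout replicate 3. In the A1 progenitors 2 members were lower in the knockout, where 2.77% of genes were called lower. Vsig4 read 3.89, 4.30 and 2.36 against 1.66, 1.67 and 1.80 (-1.81 ± 0.43, adjusted p = 0.00477), and Marco read 4.22, 3.95 and 2.99 against 2.35, 2.63 and 2.42 (-1.25 ± 0.30, adjusted p = 0.0058). Both A1 calls were lost without wild-type replicate 2, and that of Marco also without replicate 1. In A1, 4 of 5 macrophage markers were lower in the knockout (6.20 to 6.52 against 4.71 to 5.05), and their part was not tested.

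**Figure D4:**
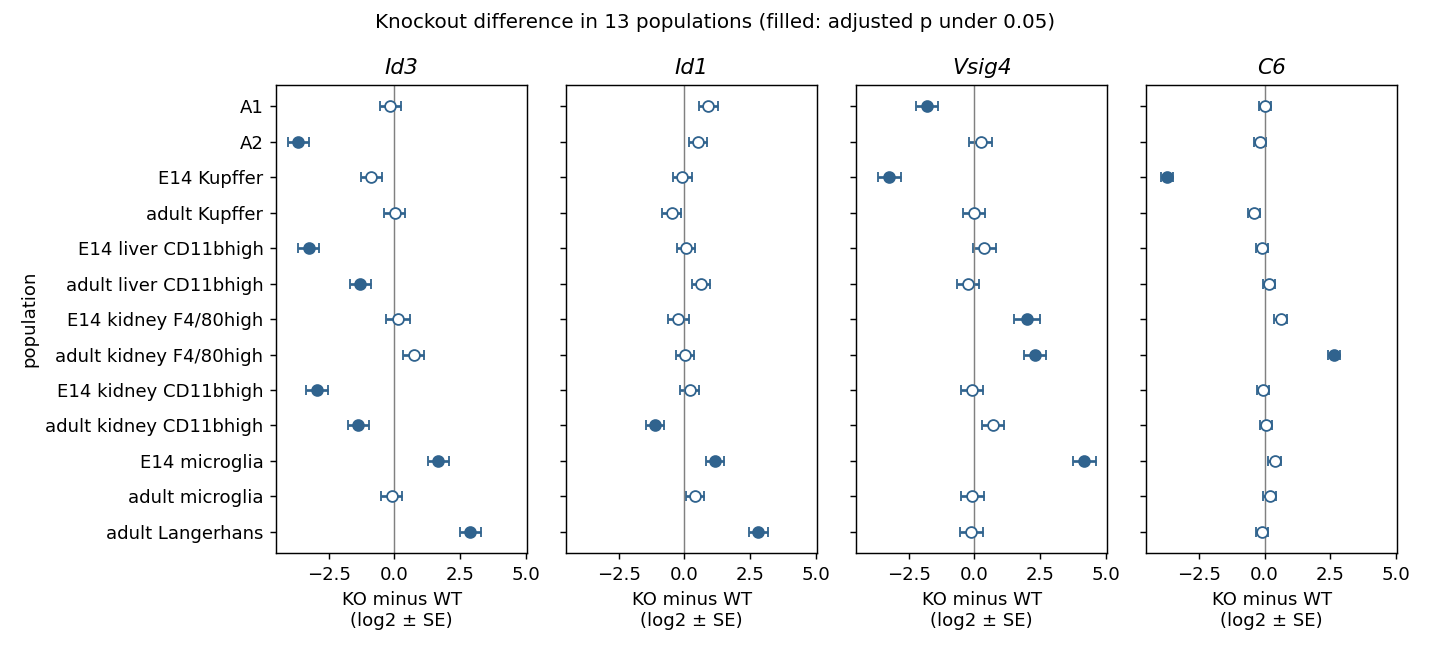
Knockout minus wild type (limma log2 difference, bars ± SE) of Id3, Id1, Vsig4 and C6 in the 13 populations (y axis) that were sorted from both genotypes, filled where the adjusted p was under 0.05. Id3 lies at -3.66 in A2 and 2.89 in Langerhans cells, and Vsig4 at -3.23 in E14 Kupffer cells and 4.18 in E14 microglia.

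The likeness of the members to each other and to other genes was described by the Pearson correlation of group means over the 27 groups, which share arrays and scaling. Cd5l and Marco were each other's closest tested gene (r = 0.97). Next to Cd5l were the tetraspanin gene Tspan15 (0.946) and the kininogen gene Kng1 (0.942), and next to Marco Lect2 (0.925) and Tspan15 (0.923). Clec4f was nearest to Hc, which encodes complement C5 (0.967), then Dmpk (0.951) and Ksr2 (0.923), and Kcna2 to Ksr2 (0.969), Il18bp (0.938) and Pcolce2 (0.933). C6 was nearest to Pcolce2 (0.932), Kcna2 (0.931) and Agt (0.927), and Vsig4 to C6 (0.907), Serping1 (0.905) and Cd5l (0.894). Nr1h3 was nearest to Cd5l (0.913), I730030J21Rik (0.912) and Marco (0.884). The mean level of hepatocyte markers was also higher in Kupffer cells than in A2, as given above. The part of hepatocyte RNA in these correlations was not tested. The correlations of Id3 with the members other than Id1 were 0.526 to 0.639. Id1 had its highest values with Nedd4 (0.828), Pla2g12a (0.76) and Acsl5 (0.759), and with the members other than Id3 its correlation was 0.075 to 0.244. Id3 was nearest to Ece1 (0.78), Elk1 (0.752) and Gstp2 (0.716), and its correlation with Id1 was 0.342. The spread between replicates was also unequal among members, the median SD per group being 0.20 for C6, 0.21 for Clec4f and Cd5l, and 0.36 for Id3 and Kcna2.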

How the data were processed

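Sorted cells of 80 samples were measured on 81 Affymetrix arrays. The deposited values are log2 signals. The authors obtained them by RMA, and the submitters' processing notes name Expression Console as the tool. Versions, annotation and genome build were not given in the sources used here. The 2 runs of A2 knockout replicate 2 (r = 0.9694) were averaged and counted as 1 sample.

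Of 41345 probes, 23521 had 1 gene symbol, 1814 had several and 16010 were not in the probe table. The brightest probe stood for a gene. Genes above 3.041, the 50th percentile of the table, in at least 2 arrays were tested, and no further scaling was applied. Means of all 27 groups were fitted with limma 3.58.1 in R 4.3.3, with an intensity trend, 53 residual degrees of freedom and prior ones with a median of 9.08. Tests were two-sided, with Benjamini-Hochberg adjustment over 17099 genes and a threshold of 0.05. The code was tested on simulated data. The number of arrays limits the precision.

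The members, gene lists, motifs and tests were chosen with earlier results of these data known. Named genes were the members, the 3 genes most like each, Irf8 and up to 4 genes per list with the smallest adjusted p, with a few others of the shorter counts named after their values were seen. The keratinocyte list, the ETS-IRF, interferon response and GGAAGT motifs and the comparison of knockout differences between E14 Kupffer cells and A2 were added after the data had been seen. Of the marker lists not described beside a result, those of microglia, Langerhans, hepatoblast, erythroid, B, T and NK, and kidney tubule cells in E14 Kupffer cells had 1, 0, 0, 0, 0, 1 and 0 genes higher and 2, 1, 0, 1, 0, 0 and 1 lower in the knockout. In adult Kupffer cells they had 0, 0, 0, 0, 2, 1 and 1 higher and 1, 0, 0, 0, 0, 0 and 0 lower. Alternatives were array weights, fits of the compared groups alone, quantile normalization, median centring, the replicate number as a block, no filter, a floor at the 75th percentile, no variance trend, every probe on its own, each run of the repeated sample and each sample left out in turn.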

Additional observations from a re-analysis of the deposited data

Results flagged for a closer look

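The following differences between knockout differences were past the test of an interaction term in the limma fit of all groups (adjusted p under 0.05), and no cause was tested. In Kupffer cells the knockout minus wild-type difference was higher in adults than at E14 by 3.29 for C6, 3.21 for Vsig4, 3.05 for Clec4f, 2.25 for Kcna2 and 2.06 for Cd5l, on the log2 scale. In kidney F4/80high macrophages it was higher in adults than at E14 by 2.03 for C6. Between adult populations, Kupffer cells minus kidney F4/80high macrophages, it was -3.05 for C6, -2.32 for Vsig4 and -1.48 for Nr1h3. Between E14 Kupffer cells and the A2 progenitors it was 2.79 for Id3, -3.85 for Kcna2, -3.60 for Clec4f, -3.53 for C6, -3.47 for Vsig4 and -2.83 for Cd5l.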

How the results depend on the processing

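The calls in E14 Kupffer cells (6 members), at wild-type onset (7) and for the change of the knockout difference with age (5) kept their count when each sample was left out. Other counts moved. In adult Kupffer cells the 2 members called became 0 with array weights, 0 with the compared groups alone, 1 with quantile normalization and 1 with no filter, and ran from 0 to 4 with samples left out. The 2 of adult liver CD11bhigh cells became 1 and the 2 of adult kidney CD11bhigh cells 0 with the compared groups alone, and the latter also 0 with array weights. The compared groups alone gave 4 for A1 and 2 for A2. The adult difference between Kupffer and kidney F4/80high cells gave 1 with either. With samples left out the counts ran from 0 to 2 in adult liver CD11bhigh cells and in A1, from 0 to 3 in adult kidney CD11bhigh cells, and from 0 to 1 in E14 kidney F4/80high macrophages. The cause was not tested.

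Directions changed for values near 0 that had not been called. In adult Kupffer cells Vsig4 became 0.00 with array weights and 0.03 with quantile normalization and ran from -0.10 to 0.05 with samples left out, and Id3 became -0.01 with median centring and ran from -0.21 to 0.24. Id1 ran from -0.24 to 0.13 in E14 Kupffer cells and from -0.21 to 0.55 at wild-type maturation, and was 0.05 at knockout maturation with quantile normalization. Kcna2 at knockout onset ran from -0.20 to 0.11. The Nr1h3 change with age was 0.02 with array weights and 0.02 with quantile normalization and ran from -0.45 to 0.27.

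Over all genes, the count called in adult Kupffer cells was 2032, with 520 under array weights and 129 with the compared groups alone. For the change with age it was 2795 and 1091 with the compared groups alone, for adult kidney CD11bhigh cells 2332, 893 and 143, and for the adult difference between Kupffer and kidney cells 793, 297 and 48. In E14 microglia 2442 became 4427 and 3984, in E14 liver CD11bhigh cells 2397 became 4819 and 4599, in A1 574 became 1485 and 1104, and for E14 Kupffer minus A2 1053 became 2245 and 1710. In E14 kidney F4/80high cells 337 became 786 and 121, and for their change with age 177 became 360 and 79. A2 had 1718 and 3197 under array weights. With the compared groups alone adult kidney F4/80high cells had 609 and 361, and E14 kidney CD11bhigh cells 2389 and 815. Median centring moved the median of all genes at onset to -0.177 from -0.057. The replicate numbers were not shown to pair samples, same-numbered deviations correlating from -0.176 to 0.151. Where the labels repeat a number the block rests on accession order. With the number as a block 3 members were called in adult Kupffer cells, Nr1h3 being added, and other member counts did not move. The files used here hold no detection calls, so levels near 3.041 cannot be told from background.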
